A study of Arabidopsis thaliana with 6 samples.

Results

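The genes described here are 10 genes of Arabidopsis thaliana that act where DNA is copied: at the replication fork, in the supply of its building blocks, and in the packing of the new DNA into chromatin. They were chosen by their known function and named by locus, with earlier results of these data known but with no threshold on a measured value, and all 10 were found on the array, among 22746 probe sets tested. Root tips of wild-type Col-0 seedlings were cut into zone I, a tip of 0.5 mm holding the root cap and division zone, and zone II, a 1.5 mm piece with elongating cells and root hairs. Plants of both zones were 8 days old, were grown on vertical plates under continuous light, and carried no mutation or treatment. The growth protocol in the labels also describes cell cultures, but the sample titles name root zones, and these were followed. Each zone was measured on 3 arrays, and the labels do not say that these came from separate batches of seedlings, so p-values measure the spread between arrays, which may be technical.

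DNA is copied in S phase. At the fork, DNA polymerase alpha with its primase lays down short starts, and polymerases delta and epsilon extend them. PCNA is the ring-shaped clamp that holds polymerases on the template. Ribonucleotide reductase, built of large and small subunits, makes the deoxynucleotides (dNTPs) for the new strands, and chromatin assembly factor 1 (CAF-1) is brought to the fork by PCNA and deposits histones H3 and H4 behind it. In roots, cells divide in the meristem near the tip. Farther up, cells that have stopped dividing can go on copying their DNA without mitosis, which is called endoreduplication.

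Of the 10 genes, 7 were higher in zone I at an adjusted p under 0.05 (limma's moderated test on log2 signal, Benjamini-Hochberg adjustment over all probe sets), and none was called toward zone II. Over all probe sets, 37.9% were called, 19.8% as higher in zone I and 18.1% as higher in zone II. The median difference of the 10 genes was 1.16 on the log2 scale, zone I minus zone II, against 0.04 over all probe sets. In 7 genes every zone I array lay above every zone II array, a pattern that 26.4% of all probe sets showed. The 3 genes not called were ICU2, RNR2A and FAS2, and in all 3 the arrays of the zones overlapped. At an unadjusted p under 0.05, 0 of the 10 were higher in zone II.

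**Figure D1:**
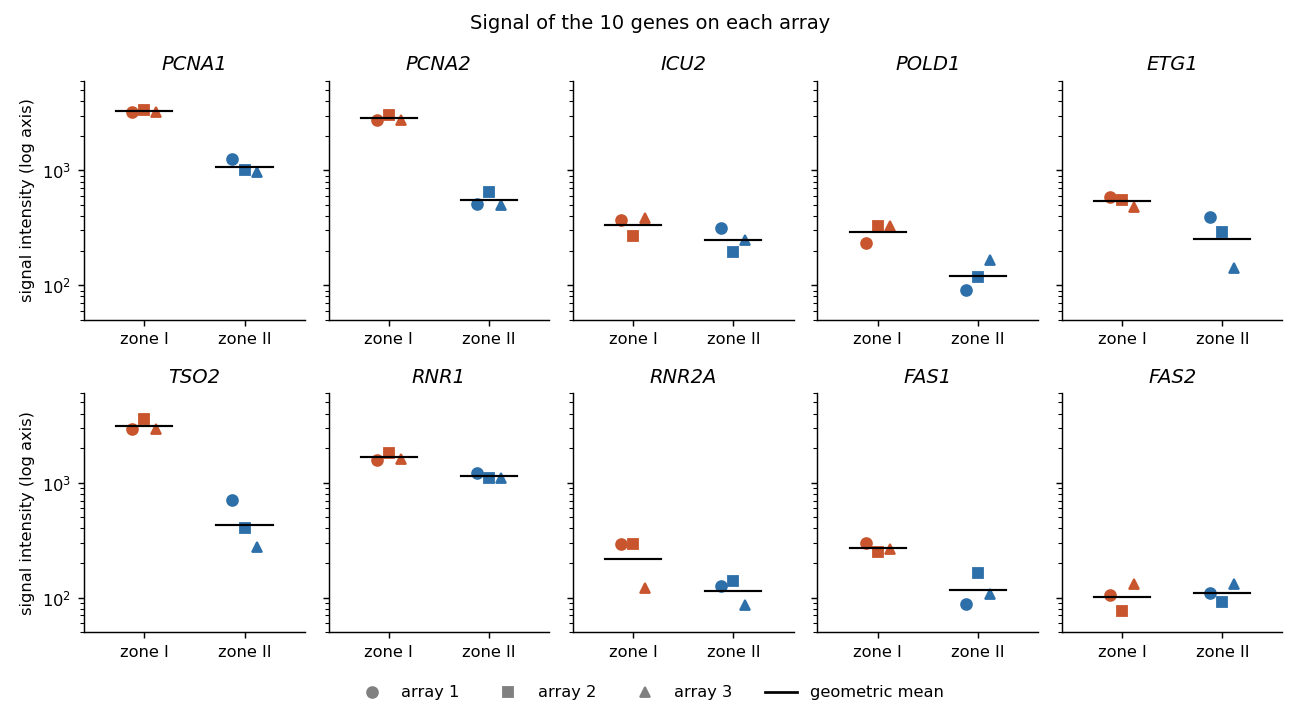
Signal intensity (log axis) of each of the 10 genes on the 3 zone I arrays (orange) and the 3 zone II arrays (blue), with marker shapes for the array numbers and bars for the geometric means. Zone I lies wholly above zone II in 7 panels, and the zones overlap for ICU2, RNR2A and FAS2.

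Both genes of the sliding clamp were several-fold higher in zone I. PCNA1 (AT1G07370) had signals of 3222, 3381 and 3241 in zone I, against 1248, 1002 and 974.9 in zone II. PCNA2 (AT2G29570) had 2735, 3060 and 2743 in zone I, against 513.1, 645.4 and 498.5 in zone II. The arrays of each zone lay close together for both genes, with SDs of 0.04 and 0.09 in zone I and 0.20 in zone II for both genes on the log2 scale. PCNA1 was 3.07-fold higher in zone I (log2 difference 1.62 ± 0.17, SE, n = 3 arrays per zone, limma adjusted p = 3.33e-05). For PCNA2 the fold was 5.18 (2.37 ± 0.19, adjusted p = 6.24e-06).

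The clamp genes encode closely related proteins, and it was not tested whether their probe sets read each other's transcript. Both probe sets are of the plain _at kind, which is meant to match the transcript of a single gene. The log2 ratio of PCNA1 to PCNA2 averaged 0.21 ± 0.05 in zone I and 0.96 ± 0.32 in zone II (SD, n = 3), a change of -0.75 ± 0.19 (SE). All 3 zone I ratios lay below all 3 zone II ratios. In an exact two-sided permutation test the p was 0.10, the smallest that 3 arrays against 3 allow, and 0.133 after adjustment over the 4 pairs of genes compared in this way. The level of such a ratio depends on the probes and has no meaning of its own, so only its change between zones is read.

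Among the polymerases, the catalytic subunit of polymerase delta differed between the zones and that of polymerase alpha did not pass the test. POLD1 (AT5G63960), which extends the lagging strand, had signals of 231.9, 331.3 and 328.7 in zone I, against 90.5, 118.0 and 167.0 in zone II. It was 2.42-fold higher in zone I (1.27 ± 0.38, SE, limma adjusted p = 0.0206). ICU2 (AT5G67100), the catalytic subunit of polymerase alpha, had 367.6, 265.8 and 387.1 in zone I, against 317.0, 194.7 and 246.5 in zone II. Its lowest zone I array lay below its highest zone II array. The estimate was 0.44 ± 0.31 (adjusted p = 0.317), with a 95% interval from -0.25 to 1.13, that is from 0.839-fold to 2.19-fold. The log2 ratio of ICU2 to POLD1 averaged 0.19 ± 0.49 in zone I and 1.03 ± 0.68 in zone II (SD, n = 3), a change of -0.84 ± 0.48 (SE), and the zones overlapped. The exact permutation p was 0.20 before and after adjustment over the 4 pairs, in a design that cannot reach 0.05.

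ETG1 (AT2G40550) encodes a protein that binds the MCM helicase and is known as a target of E2F, the transcription factor family that turns on S phase genes. Its signals were 590.7, 552.2 and 482.5 in zone I, against 396.4, 293.8 and 140.8 in zone II. The zones did not overlap, but the zone II arrays spread widely (SD 0.77 on the log2 scale, against 0.15 in zone I). ETG1 was 2.13-fold higher in zone I (1.09 ± 0.37, SE, limma adjusted p = 0.0368). Without zone II array 3 the difference was 0.66 (adjusted p = 0.0842), and without the intensity trend the adjusted p was 0.113. The call also ended when each of the 3 zone I arrays was left out in turn (adjusted p = 0.0673 to 0.111) and when zone II array 2 was left out (0.0568).

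The genes of ribonucleotide reductase did not differ to the same extent. TSO2 (AT3G27060), a small subunit gene, showed the largest difference of the 10 genes. Its signals were 2915, 3586 and 2945 in zone I, against 702.7, 402.0 and 276.0 in zone II. It was 7.34-fold higher in zone I (2.88 ± 0.30, SE, limma adjusted p = 3.03e-05), and only 3.35% of all probe sets had a larger difference toward zone I.

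RNR1 (AT2G21790), the large subunit, had signals of 1580, 1829 and 1625 in zone I, against 1222, 1091 and 1109 in zone II. The zones did not overlap, and the fold was 1.47 (0.56 ± 0.17, SE, limma adjusted p = 0.0251), the smallest among the 7 called genes. Of all probe sets, 36.3% differed more toward zone I. The interval of RNR1, from 0.18 to 0.94, lay below that of TSO2, from 2.21 to 3.54. RNR1 lost its call when the intensity trend was dropped (adjusted p = 0.114) and when array 2 or array 3 of zone I (0.0936 and 0.0647) or of zone II (0.073 and 0.0514) was left out.

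RNR2A (AT3G23580), the other small subunit gene described here, had signals of 292.5, 289.9 and 122.2 in zone I, against 125.8, 139.4 and 85.7 in zone II. Zone I array 3 fell within the range of zone II, and the estimate of 0.93 ± 0.46 (SE) did not pass (limma adjusted p = 0.143, interval -0.09 to 1.94). Without zone I array 3 it was 1.35 and passed (adjusted p = 0.0453). The log2 ratio of TSO2 to RNR2A averaged 3.85 ± 0.66 in zone I and 1.90 ± 0.51 in zone II (SD, n = 3). All 3 zone I ratios were above all 3 zone II ratios, a change of 1.95 ± 0.48 (SE, exact permutation p = 0.10, adjusted p = 0.133).

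**Figure D2:**
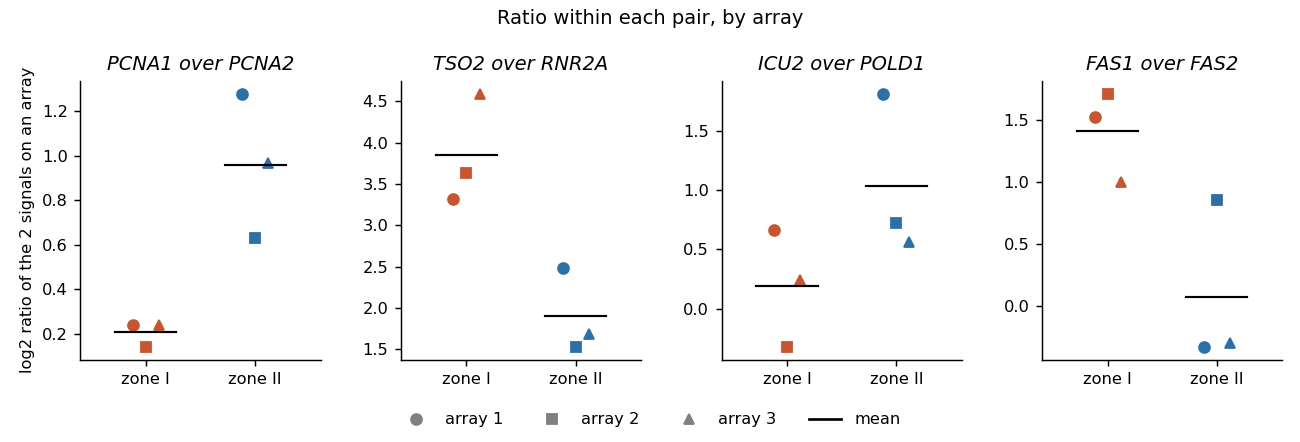
Log2 ratio of the signals of 2 genes on the same array, for the 4 pairs compared, with zone I (orange) left of zone II (blue), bars for the means of 3 arrays and a separate vertical scale in each panel. The zones do not overlap for PCNA1 over PCNA2, TSO2 over RNR2A and FAS1 over FAS2, and they overlap for ICU2 over POLD1.

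Of the CAF-1 subunits, FAS1 was higher in zone I and FAS2 showed no difference beyond the spread of its arrays. FAS1 (AT1G65470), the large subunit, had signals of 301.1, 251.2 and 264.7 in zone I, against 87.7, 165.3 and 107.6 in zone II. It was 2.34-fold higher in zone I (1.23 ± 0.38, SE, limma adjusted p = 0.0251). That call ended with each of the 3 zone I arrays left out in turn (adjusted p = 0.0601 to 0.0887), without zone II array 1 (1.03, adjusted p = 0.0554) and without array 1 of both zones (0.95, adjusted p = 0.142).

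FAS2 (AT5G64630), the middle subunit, had signals of 104.8, 77.0 and 132.2 in zone I, against 110.3, 92.0 and 132.5 in zone II. The zones lay on top of each other, with an estimate of -0.11 ± 0.47 (SE, limma adjusted p = 0.886). Its interval, from -1.15 to 0.93, leaves room for a gene up to 1.91-fold higher in zone I, and its sign turned with quantile normalization (0.01). The log2 ratio of FAS1 to FAS2 averaged 1.41 ± 0.36 in zone I and 0.07 ± 0.67 in zone II (SD, n = 3), with no overlap and a change of 1.34 ± 0.44 (SE, exact permutation p = 0.10, adjusted p = 0.133). MSI1 (AT5G58230), the small CAF-1 subunit, which also serves in other chromatin complexes, is in the chromatin list described below and was singled out after its values were seen. It was 4.25-fold higher in zone I (2.09 ± 0.22, SE, limma adjusted p = 2.95e-05).

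**Figure D3:**
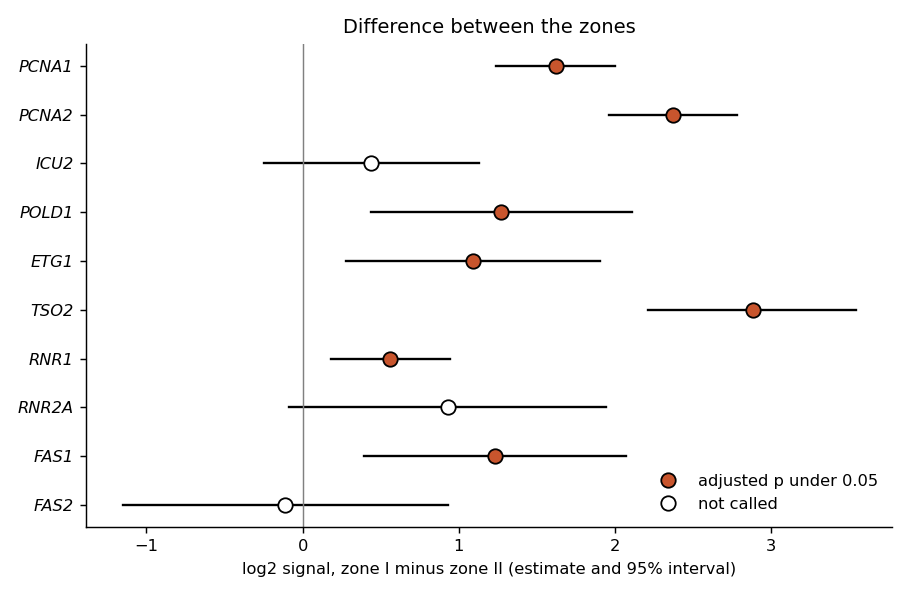
Log2 signal of zone I minus zone II for the 10 genes, with 95% intervals from the limma fit; filled points have an adjusted p under 0.05 and open points do not. The estimates run from -0.11 for FAS2 to 2.88 for TSO2, and the intervals of ICU2, RNR2A and FAS2 include 0.

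Ordered by difference, the genes ran from TSO2 through PCNA2, PCNA1, POLD1, FAS1, ETG1, RNR2A, RNR1 and ICU2 to FAS2, and each gene's 95% interval overlapped that of its neighbour. The lower bound of TSO2, 2.21, lay above the upper bounds of the other genes except PCNA2. The lowest signal of the 10 genes on any array was 77.0, for FAS2, while 35.2% to 39.6% of probe sets lay under 64. No detection calls were used here, and on each array the signal of FAS2 lay below the median of all probe sets, which was 132.1 to 149.3. RNR2A lay below the array's median on every zone II array and on zone I array 3. POLD1 did so on zone II arrays 1 and 2, and FAS1 on zone II arrays 1 and 3. Adding 64 to every signal left the 7 calls in place and brought the median difference to 0.90. POLD1 and FAS1 then lay at 0.94 and 0.89, against 1.27 and 1.23 with no offset.

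In the authors' deposited table, 8 of the 10 genes had an adjusted p under 0.05 and were higher in zone I, against 25.6% of all probe sets in that table. The authors' deposited table gives its log2 fold change as zone II over zone I, a direction taken from its correlation of 0.87 over probe sets with that difference in the signals. The added gene was RNR2A, at -1.17 with an adjusted p of 0.012 in the authors' deposited table. FAS2 stood at -0.40 there (authors' deposited table, adjusted p = 0.181), so the sign for this gene depends on the source. TSO2 and PCNA2 change places, at -2.37 and -2.56 in the authors' deposited table.

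Other genes of the same processes were read from 4 further lists, of which 56 of 65 genes were on the array. For comparison, 19.8% of all probe sets were called toward zone I and 18.1% toward zone II. At the fork, 20 of 28 measured genes were called toward zone I and 0 toward zone II (limma adjusted p under 0.05), with a median difference of 1.31. All 28 differences were positive, against 11640 of 22746 over all probe sets, so 0 fork genes pointed to zone II at any p. Grouping by complex, here and below, was not planned and was made after the values were seen. All 4 measured subunits of the clamp loader RFC, which opens the PCNA ring, were called. Their differences were 1.24 to 2.84, or 1.04 to 1.69 with 64 added. All 4 measured genes of GINS, a part of the replicative helicase, were called as well (1.15 to 2.89).

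For replication protein A, which coats single-stranded DNA, 7 of 8 measured genes were called as higher in zone I, against 19.8% of all probe sets. Differences ran from 0.95 to 5.39 over all 8. RPA1D (AT5G61000), a large subunit known to act in replication, had signals of 502.8, 425.8 and 669.4 in zone I, against 12.2, 15.2 and 10.6 in zone II, with no overlap. Its difference was 5.39 ± 0.53 (SE, limma adjusted p = 2.08e-05), and 2.94 with 64 added, since its zone II signals lie in the range of probe set noise. RPA1E (AT4G19130), another large subunit, lay at 3.17 ± 0.94 (adjusted p = 0.0202; 1.36 with 64 added). It lost its call without array 1 of both zones (2.01, adjusted p = 0.0814), with each zone I array left out in turn (0.0539 to 0.0719) and without the intensity trend (0.0657). PSF1 (AT1G80190), a GINS subunit, had 528.8, 537.2 and 511.2 in zone I, against 33.5, 94.5 and 112.4 in zone II, a difference of 2.89 ± 0.47 (adjusted p = 0.00055; 2.08 with 64 added).

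Among the partners of the polymerases, also grouped by complex after their values were seen, some genes were called and others were not. Of the 3 partners of ICU2 in polymerase alpha and primase, 1 was called as higher in zone I, with differences of 0.50 to 1.13. Of the 3 further subunits of polymerase delta, 2 were called (0.59 to 2.68, or 0.56 to 1.83 with 64 added). The 2 measured catalytic genes of polymerase epsilon, TIL1 and TIL2, were not called (0.44 and 0.52). TIL2 had geometric mean signals of 7.19 in zone I, against 5.00 in zone II, in the range of probe set noise, and its difference was -0.01 with 64 added. Whether these complexes differ from each other was not tested.

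Of 6 measured genes in the dNTP list, which leaves out ribonucleotide reductase, 4 were called toward zone I and 1 toward zone II. The shares of all probe sets were 19.8% and 18.1%. The median difference of the list was 1.27. THY1 (AT2G16370), among the 4 and named only for its probe set, was read by one of the _s_at kind, not the plain _at kind. The deoxyribonucleoside kinase gene dNK (AT1G72040), which acts in salvage of nucleosides, had signals of 782.7, 927.6 and 876.5 in zone I, against 107.3, 208.8 and 178.8 in zone II (2.44 ± 0.30, SE, limma adjusted p = 9.52e-05). The thymidine kinase gene TK1b (AT5G23070), also of salvage, lay at 1.81 ± 0.37 (adjusted p = 0.00239). The gene higher in zone II was AT5G40270, annotated in the authors' deposited table as a metal-dependent phosphohydrolase with an HD domain. It had signals of 201.8, 140.4 and 88.2 in zone I, against 832.3, 964.8 and 512.4 in zone II, so that every zone II array was above every zone I array. Its difference was -2.45 ± 0.37 (SE, adjusted p = 0.000369), or 5.48-fold higher in zone II.

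Of 15 measured genes of chromatin assembly and maintenance, 13 were called toward zone I and 0 toward zone II (limma), with a median difference of 1.62. The shares of all probe sets were 19.8% and 18.1%. The lone negative difference, also not past an unadjusted p of 0.05, was that of NAP1;3 (AT5G56950), a histone chaperone gene named after its values were seen (-0.21 ± 0.19, SE, limma adjusted p = 0.447). VIM1 (AT1G57820) encodes a protein that binds methylated DNA and helps keep CG methylation after replication. Its signals were 1775, 2261 and 1739 in zone I, against 151.8, 136.0 and 216.4 in zone II, 11.6-fold higher in zone I (3.54 ± 0.25, adjusted p = 4.34e-06). MET1 (AT5G49160), the methyltransferase that copies CG methylation to the new strand, was 10.1-fold higher (3.33 ± 0.38, adjusted p = 5.24e-05; 2.58 with 64 added). The histone chaperone NRP1 (AT1G74560) was 5.40-fold higher (2.43 ± 0.23, adjusted p = 1.66e-05).

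Of 7 measured genes for E2F factors, their partners and the retinoblastoma homologue RBR1, 4 were called toward zone I and 0 toward zone II. The shares of all probe sets were 19.8% and 18.1%. The median difference of the list was 0.76, and all 7 differences were positive, against 11640 of 22746 over all probe sets. E2FA (AT2G36010), an activator of S phase genes, had signals of 296.5, 817.4 and 508.3 in zone I, against 184.0, 77.1 and 94.1 in zone II (2.18 ± 0.46, SE, limma adjusted p = 0.00298). DEL3 (AT3G01330), an E2F-like factor that needs no partner, lay at 1.84 ± 0.42 (adjusted p = 0.00528). E2FC (AT1G47870), known as a repressor, lay at 0.70 ± 0.25 (adjusted p = 0.0471). E2FC lost its call, with adjusted p from 0.0524 to 0.127, with the replicate number as a block, without the intensity trend, with robust eBayes, and with each array left out in turn except zone II array 1, also without array 1 of both zones. The count of called genes in this list was 2 of 7 with the replicate number as a block, without the intensity trend, with robust eBayes, or with any 1 zone I array, zone II array 3, or array 1 of both zones left out. Of all 22746 probe sets, 4419 were called toward zone I with the block, 3591 without the trend and 4547 with robust eBayes. With arrays left out that count was 3452 to 4446. Whether 2 of 7 exceeds these shares was not tested.

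**Figure D4:**
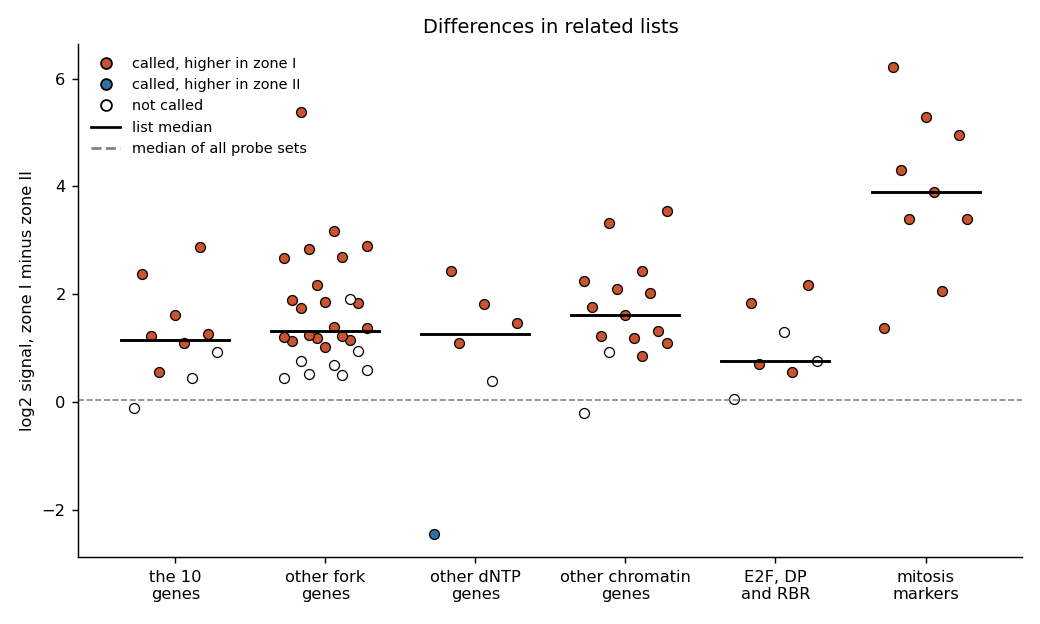
Log2 signal of zone I minus zone II for every measured gene of the 10 described here, of the 4 related lists and of the mitosis markers, with list medians as bars and the median of all probe sets as a dashed line. Orange points are called as higher in zone I, blue as higher in zone II, and open points are not called; the blue point is AT5G40270.

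The zones matched their labels by markers of their cells. All 9 measured genes of the mitosis list rose in zone I (median 3.90, or 2.14 with 64 added), as were the 2 measured stem cell niche genes PLT1 and PLT2 and 3 of 4 root cap factors. The summed signal of 4 Casparian strip genes of the endodermis was 24 to 73 in zone I and 31544 to 51976 in zone II. That of 4 root hair genes was 58 to 261 in zone I and 23342 to 35683 in zone II. No marker was listed at 0 on any array, as no signal in the table was under 0.136. In pieces of tissue such as these, fewer cells in S phase and less RNA of these genes per cell cannot be told apart, and the share of dividing cells moves with the zone.

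The zone II arrays were not alike in the mitosis markers. Their summed signal was 4800 to 9014 over zone I arrays and 1682, 553 and 476 on zone II arrays 1, 2 and 3, and array 1 exceeded the mean of the other 2 for all 9, with a median gap of 2.28 (log2). Zone II array 1 also had the highest zone II sum for the root hair genes (35683, against 24415 and 23342 on arrays 2 and 3). The same held for the Casparian strip genes (51976, against 44790 and 31544) and the root cap factors (195, against 103 and 45). For PLT1 and PLT2 it had the lowest sum (4, against 30 and 21). The 10 genes summed to 12271 to 13624 over zone I arrays and to 4813, 4143 and 3739 on zone II arrays 1, 2 and 3. On zone II array 1, 6 of the 10 genes lay above the mean of the other 2 zone II arrays, against 11912 of 22746 probe sets. The largest gaps were those of TSO2 and ETG1, at 1.08 and 0.96, and both had their highest zone II signal there. POLD1 and FAS1 had their lowest there, by -0.63 and -0.60, and the median over the 10 genes was 0.18. Without zone II array 1 the count of called genes was 6, the median difference was 1.04, and TSO2 and ETG1 lay at 3.23 and 1.41. The part of this array's mitosis signal in these results was not tested further.

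The calls of PCNA1, PCNA2 and TSO2 held under all 15 alternatives, 7 of which left out arrays. Without zone I array 2, only these 3 of the 10 genes were called. Without zone I array 3, 4 were called, these 3 and RNR2A. POLD1 lost its call without either of those arrays (1.19 in both cases, limma adjusted p = 0.0806 and 0.0831).

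**Figure D5:**
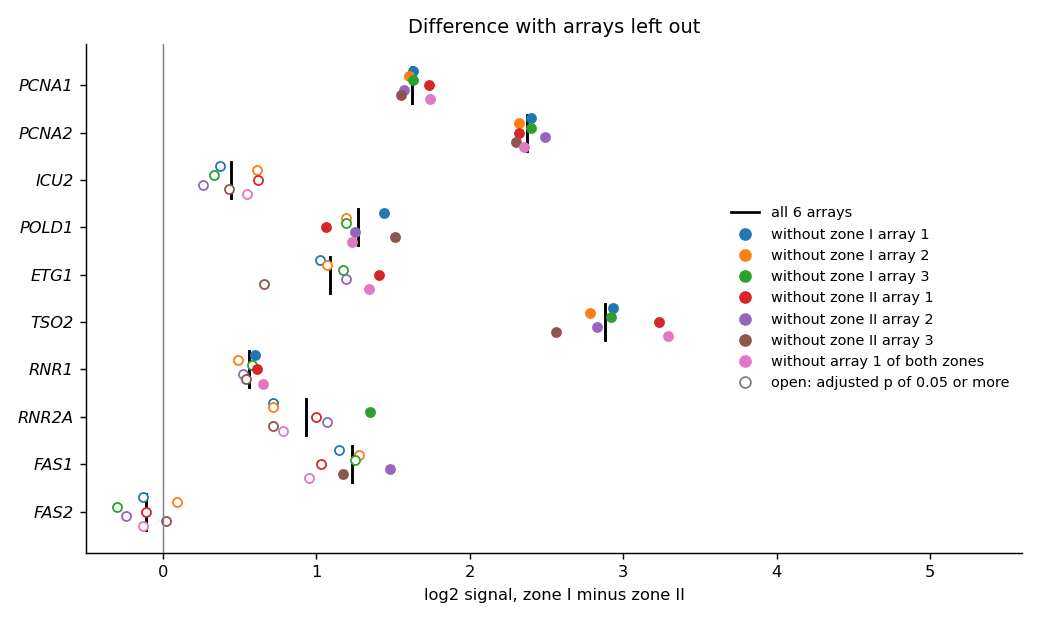
Log2 signal of zone I minus zone II for the 10 genes with all 6 arrays (black bars) and with arrays left out (coloured points, filled where the adjusted p was under 0.05). PCNA1, PCNA2 and TSO2 stay filled throughout, and FAS2 lies on both sides of 0.

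The genes most like the mean pattern of the 10 over the 6 arrays were found by the root mean square difference between log2 profiles, each centred on its own mean, among 11011 probe sets of other genes brighter than the median. The nearest was HTA9 (AT1G52740), a histone H2A variant gene, at 0.0413. Next came AT1G10180, annotated as an unknown protein, at 0.0561, and AT3G62810, a complex 1 family gene, at 0.0627. CSR1 (AT3G48560), an acetolactate synthase gene, stood at 0.0628 and the diaminopimelate epimerase gene AT3G53580 at 0.0637. The ranking chose these genes for their pattern over the same arrays, so their zone differences are not given as results. The distance of the 10 genes themselves to their own mean ran from 0.209 for PCNA1 to 0.886 for TSO2.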

How the data were processed

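RNA from 6 root samples was isolated with a PicoPure kit, amplified with Ovation Pico WTA and measured on arrays with biotin label, per the labels' protocols. The authors deposited signal intensity values for 22810 probe sets, made with MAS5 and Affymetrix Expression Console per the submitters' processing notes; no version or setting is known from those notes. The deposited intensity values were linear, with a trimmed mean of 500 on every array (2% left out at each end). A second table from the authors holds, for each probe set, a log2 fold change and a p-value before and after adjustment; which test was run is not stated there.

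The 64 control probe sets were left out. The deposited scaling was kept, log2 was taken with no offset, and zone I was compared with zone II in limma 3.58.1 (R 4.3.3) with an intensity trend, all 6 arrays and Benjamini-Hochberg adjustment over 22746 probe sets. Genes were matched by the deposited locus, 1 probe set each. No genome build or sequence table was used here, so no coordinates or sequences are printed. The fit was checked on simulated data with far fewer changed probe sets than were called here, and the outcome is not reported here. The number of arrays limits the precision.

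The 10 genes, the lists and the tests were chosen with earlier results of these data known. From each related list the text names the 3 called genes with the largest difference and the called gene furthest against the majority; from the likeness ranking, the nearest 5. Alternatives were the replicate block, offsets of 16 and 64, no trend, quantile scaling, arrays set to equal medians, dropping probe sets under the 40th percentile of mean signal, robust eBayes and arrays left out. Exact permutation tests used scipy 1.17.1. The planned promoter motif search is not reported here.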

Additional observations from a re-analysis of the deposited data

How the results depend on the processing

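With the replicate number as a block the count of called genes was 7 of 10 and the median difference 1.16, as without it; the block ended the call of E2FC (adjusted p = 0.0594) and of no other gene that the naming rule gave. The labels link same-numbered arrays of the zones by that number alone. Correlations of their deviations were 0.00406, 0.036 and 0.0373, against -0.0376 to 0.00261 for arrays with different numbers. With 3 arrays per zone, these values cannot show whether the arrays were paired. The count of called genes ran from 3 (without zone I array 2) to 6 when single arrays were left out, with 4 without zone I array 3 and 6 without array 1 of both zones, and their median difference from 0.95 to 1.22. It was 5 without the intensity trend and 7 under the offsets, both scalings, the filter and robust eBayes. The E2F list counted 2 of 7 with the replicate block, without the intensity trend, with robust eBayes and without array 1 of both zones, and 2 to 4 with single arrays left out. With arrays left out, the fork list counted 14 to 21 of 28 called toward zone I, the 14 without zone I array 2. Without the intensity trend the fork list counted 16, against 20 in the main fit. The chromatin list counted 11 to 13 of 15 with arrays left out, against 13 in the main fit. Quantile normalization and equal medians moved the median of all probe sets to 0.15 and 0.12, against 0.04, and the filter to 0.18. The cause of these changes was not tested. None of the recomputed counts, medians and differences, which cover the 10 genes and those that the naming rule gave, reversed past its threshold; genes named outside that rule, such as MSI1, were not recomputed. FAS2, which had no call, lay between -0.30 and 0.09. The pair ratios kept their direction with 64 added (-0.68, 2.02, -0.58 and 0.95 in the order given). RPA1E had no value under the filter, which removed it. The planned promoter motif search was not run, and the pair ratios were not recomputed with arrays left out.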
